A study of Mus musculus with 4 samples.

Results

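The genes that store, take up, carry and export iron were read in the single-cell RNA sequencing of mouse aortic arches. They were 9 of the 31053 genes counted, chosen by name for their roles: Ftl1 and Fth1, Slc40a1 and Cp, Trf and Tfrc, Slc11a1 and Slc11a2, and Ireb2. The choice was made with earlier results of these data known. All 9 were detected. Each library was 1 pool of arches with their branches and perivascular tissue, from 4 mice in each normocholesterolemic group and 3 mice in each atherosclerotic group, all male and 3 months old at the start. Nrf2flox/flox mice, Nrf2Cdh5Lox in the labels, carry loxP sites in both alleles of Nfe2l2, the gene of the transcription factor Nrf2, in a line on the C57BL/6 strain. Nrf2Cdh5tKO mice carry the same floxed alleles and a constitutive Cre driven by the Cdh5 promoter, which removes exon 5 in endothelial cells and in part of the blood lineage. Both genotypes came from crossing the floxed line with a Cdh5-Cre line of mixed strain, only partly C57BL/6. The share of each strain in the pools is not given. Atherosclerotic mice received an AAV8 vector and a high-fat diet for 21 weeks, and normocholesterolemic mice received saline and standard food.

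Iron enters most cells bound to transferrin, through the transferrin receptor and endosomes, and is held inside cells by ferritin, a shell built of light and heavy chains. Macrophages also take iron from the haemoglobin of engulfed red cells, keep it in ferritin or return it to the blood through ferroportin. Iron regulatory proteins bind hairpins in the untranslated regions of several of these mRNAs when iron is short. In that state they hold back translation of mRNAs with a hairpin in the 5′ untranslated region and protect the mRNA of the transferrin receptor, whose hairpins lie in the 3′ untranslated region. The levels below are of mRNA, which reads only a part of this control.

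The hairpins are shown because they mark where a site of 1 strict form was found among the members. A search of GENCODE M21 transcripts on GRCm38 asked for a C bulge, 5 paired bases and a loop of 6 bases of the iron-responsive kind. In the lower stem, before the bulge, at least 3 of 4 bases had to pair. G with T counted as a pair. It found 8 sites of 25 bases in 4 of the 9 members, and at least 1 site in 0.442% of 21951 protein-coding genes. The capitals mark the loop, written 5′ to 3′ on the strand of the gene.
Slc40a1, 5′ untranslated region, reverse strand of chr1:45925467-45925491: acttcagctaCAGTGTtagctaagt
Ftl1, 5′ untranslated region, reverse strand of chr7:45459781-45459805: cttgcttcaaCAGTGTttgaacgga
Fth1, 5′ untranslated region, forward strand of chr19:9982734-9982758: cctgcttcaaCAGTGCttgaacgga
Tfrc, 3′ untranslated region, forward strand of chr16:32631162-32631186: ttatcagtgaCAGAGTtcactataa
Tfrc, 3′ untranslated region, forward strand of chr16:32631221-32631245: ttatcggaagCAGTGCcttccataa
Tfrc, 3′ untranslated region, forward strand of chr16:32631600-32631624: ttatcgggagCAGTGTcttccataa
Tfrc, 3′ untranslated region, forward strand of chr16:32631665-32631689: atatcggagaCAGTGAtctccatat
Tfrc, 3′ untranslated region, forward strand of chr16:32631712-32631736: ttatcgggaaCAGTGTttcccataa
The export gene and both ferritin genes thus had 1 site each before the coding sequence, and the transferrin receptor gene had 5 after it. No site of this form was found in the other 5 members, which says only that these letters did not occur there. A hairpin with a further bulge, an unpaired base in the upper stem or too few paired bases in the lower stem would be missed. The search therefore cannot tell whether those members, Slc11a2 among them, carry a site. Their positions on GRCm38 are 74375195 to 74386062 of chromosome 1 for Slc11a1, 100387898 to 100425072 of chromosome 15 for Slc11a2, 103204001 to 103230444 of chromosome 9 for Trf, 54863789 to 54912530 of chromosome 9 for Ireb2 and 19957054 to 20009145 of chromosome 3 for Cp.

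Levels are in CPM, the UMIs of a gene per 1000000 UMIs summed over all cells of a type in a library, where a UMI (unique molecular identifier) stands for 1 captured transcript. Values in 4 libraries are given in the order normocholesterolemic Nrf2flox/flox, normocholesterolemic Nrf2Cdh5tKO, atherosclerotic Nrf2flox/flox and atherosclerotic Nrf2Cdh5tKO. The libraries held 12276546 to 98754487 UMIs in 1160 to 8512 barcodes, of which 14148 of 15599 passed the filters. Any pair of libraries shared 2 to 10 barcodes. Cells were assigned to types by the summed level of marker genes, which gave in the same order 4401, 1588, 466 and 1167 fibroblasts, 1345, 364, 67 and 261 smooth muscle cells, 843, 346, 157 and 313 mononuclear phagocytes, and 78, 45, 28 and 23 endothelial cells. In endothelial cells, the targeted gene Nfe2l2 stood at 185 and 170 CPM in the Nrf2flox/flox libraries and at 369.7 and 356 CPM in those labelled Nrf2Cdh5tKO. It was not lower under that label, so these are called the libraries labelled Nrf2Cdh5tKO. The levels rest on 23 to 78 endothelial cells per library and are given without intervals, so they do not decide the genotype. By qPCR, the study reported less of the removed exon in bone marrow-derived macrophages and Kupffer cells of such mice. It also reported less mRNA of target genes of the transcription factor there. Whether tags at the 3′ end read the removal of exon 5 was not tested. Thymocytes, which are not cells of the aorta, made up 20 to 204 cells per library.

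Cell types were compared by edgeR's quasi-likelihood test on summed UMIs, each type against the mean of the other types, with the library as a block and Benjamini-Hochberg adjustment over all genes tested. The replicates are the 4 libraries, which also differ in genotype and diet. Mononuclear phagocytes stood out in most of the iron genes, with 7 of 8 tested members higher and 0 lower, where 55.2% of 11409 genes were called in either direction. In fibroblasts 5 members were higher and 1 lower, beside 60.9% of all genes. Smooth muscle had 1 higher and 4 lower (63.3% of all genes), endothelial cells 2 higher and 4 lower (32.2%), T and NK cells 1 higher and 5 lower (53.0%), and B cells 1 higher and 2 lower (39.9%). Slc40a1 had too few UMIs for this fit. The phagocyte, fibroblast and endothelial counts include Slc11a1, which had no UMI in endothelial cells. The share of members called lay furthest above that of all genes in endothelial cells and phagocytes, and was close to it in smooth muscle and B cells. The endothelial count was not stable. Fewer members were called there whichever library was left out, and Slc11a1, Slc11a2 and Ireb2 each lost their call in some of these fits. Each such fit has fewer samples, and the share of all genes called in it is not given here. Whether the members moved more than other genes was not tested.

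**Figure D1:**
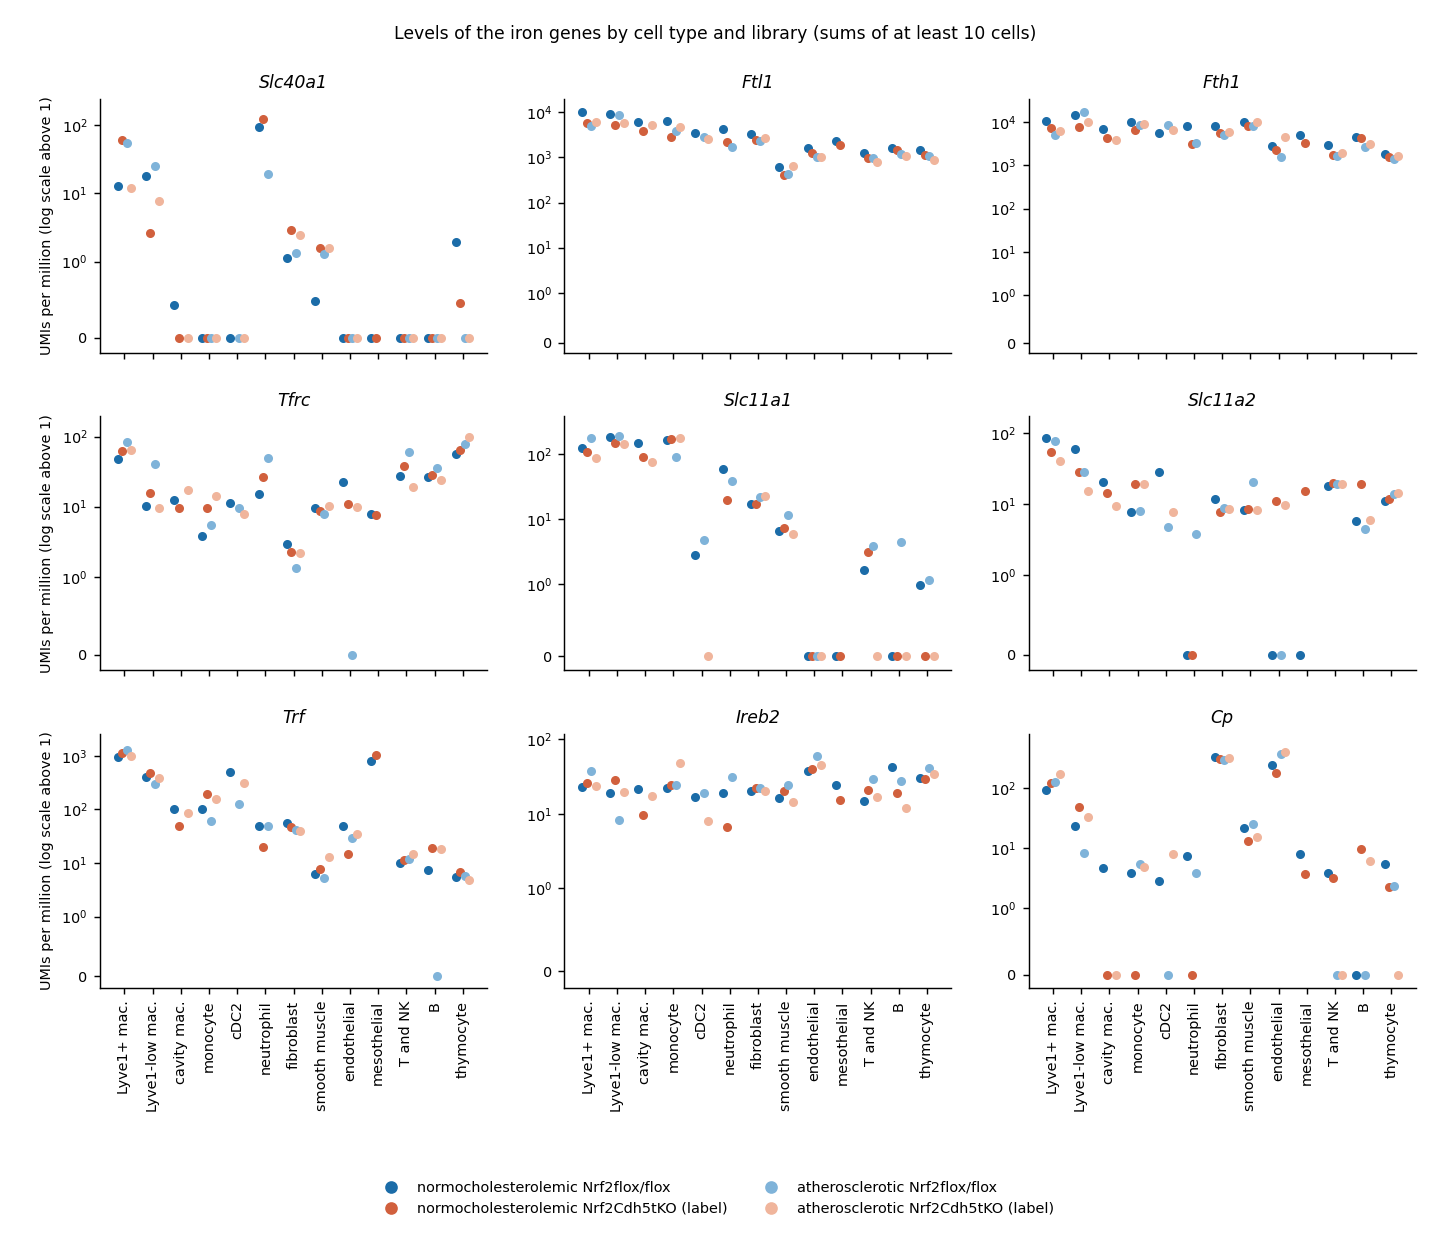
Level of each of the 9 genes (CPM, on an axis that is logarithmic above 1 and linear below it) in each cell type, with 1 point per library of at least 10 cells, coloured by library. Trf runs from 0 to 1286 CPM across cell types, and the mean of Ireb2 stays between 14.6 and 45.1 CPM.

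Of the storage genes, Ftl1 (chromosome 7 of GRCm38 from 45457944 to 45459884) encodes the light chain of ferritin, which helps to lay down the iron core, and Fth1 (chromosome 19 from 9980598 to 9985098) the heavy chain, which oxidizes iron as it enters. Ftl1 in Lyve1+ resident macrophages, the macrophages of the adventitia that carry the hyaluronan receptor Lyve1, was at 9984, 5675, 4902 and 6186 CPM. In fibroblasts it was at 3363, 2417, 2350 and 2681 CPM. Smooth muscle cells had 611, 414, 439.9 and 654 CPM of Ftl1, the lowest of all 13 cell types in the order of the means and without overlap with the next lowest, T and NK cells. Every library thus had the same order of these 3 cell types.

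Fth1 followed another order. Smooth muscle cells had 9808, 8195, 8300 and 10293 CPM of it, among the highest levels, while Lyve1+ resident macrophages had 10735, 7283, 5005 and 6247 CPM. The highest mean was that of the Lyve1-low macrophages, the macrophages that passed marker lists of the proinflammatory, aortic intima resident or Trem2 kind but not that of Lyve1, at 14937, 7682, 17220 and 9965 CPM. These 3 cell types overlapped. Thymocytes were lowest, at 1414 to 1853 CPM. By the test across main cell types, Ftl1 was higher in phagocytes (log2 fold change 2.43 ± 0.09 SE, adjusted p = 5.43e-19) and lower in smooth muscle (-1.80 ± 0.12, adjusted p = 3.07e-13), while Fth1 was higher in both (1.10 ± 0.13, adjusted p = 4.12e-08, and 1.26 ± 0.13, adjusted p = 2.14e-09). Both chains were higher in fibroblasts (Ftl1 1.07 ± 0.09, Fth1 0.61 ± 0.13) and lower in endothelial cells (-0.70 ± 0.11 and -1.19 ± 0.16) and in T and NK cells (-0.85 ± 0.11 and -1.50 ± 0.16). In B cells neither passed the test (Ftl1 adjusted p = 0.281, Fth1 adjusted p = 0.118).

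The balance of the ferritin chains is given as the UMIs of Ftl1 as a percent of those of Ftl1 and Fth1 together. It compares cell types only, since the chance of capture differs between genes. In smooth muscle cells it was 5.86, 4.81, 5.03 and 5.97%, so that nearly all ferritin UMIs were of the heavy chain, with a mean of 5.42% ± 0.58 (SD, n = 4). In fibroblasts the percent was 29.4, 29.9, 32.3 and 31.1. In Lyve1+ resident macrophages it was 48.2, 43.8, 49.5 and 49.8, with a mean of 47.8% ± 2.76 (SD, n = 4), and cavity macrophages stood near them at 50.5% ± 5.54 (SD, n = 3). The groups of smooth muscle, fibroblast and Lyve1+ libraries did not overlap. Lyve1+ resident macrophages exceeded smooth muscle by 42.4 percentage points ± 2.43 (SD of the difference) in 4 of 4 libraries, with p = 0.125 in a two-sided exact permutation test over sign changes, the smallest that 4 libraries allow. They exceeded Lyve1-low macrophages by 10.6 points ± 5.77 and fibroblasts by 17.1 points ± 2.29, each in 4 of 4 libraries and with the same p = 0.125 in the exact permutation test. Endothelial cells were at 36.8, 35.5 and 39.7% in 3 libraries and at 18.5% in the library labelled atherosclerotic Nrf2Cdh5tKO, where 515 of the 909 Fth1 UMIs came from 1 of the 23 cells. Without the cell that held the most Fth1 UMIs in each library, an alternative chosen after seeing the data, the endothelial percent was 36.8, 36.7, 42.1 and 29.9.

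**Figure D2:**
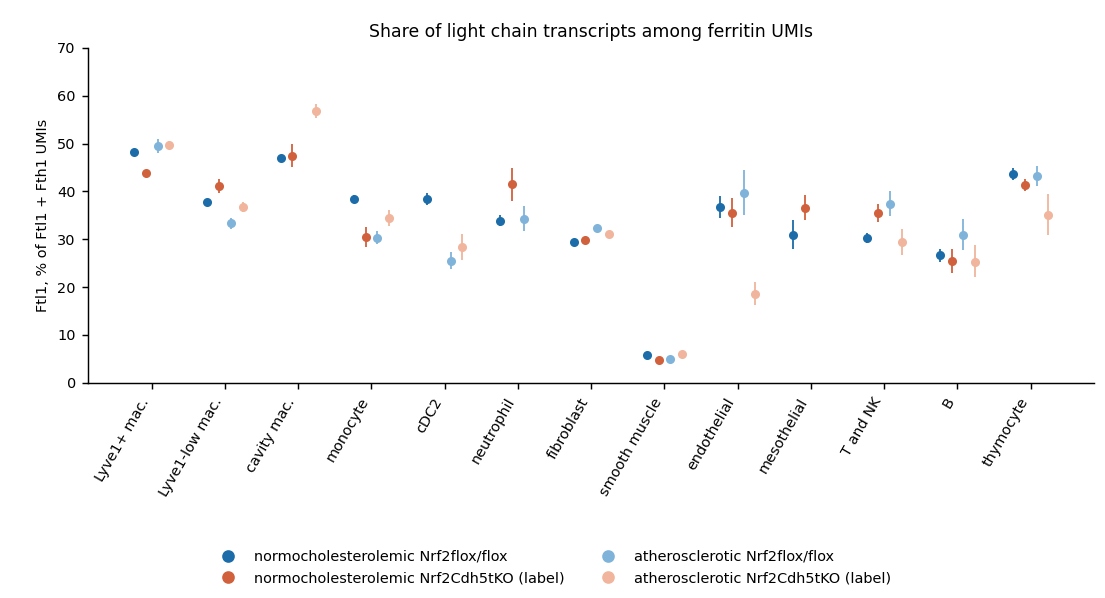
UMIs of Ftl1 as a percent of the UMIs of Ftl1 and Fth1 together, by cell type, with 1 point per library and its exact 95% binomial interval, which covers counting error only. Smooth muscle lies at 4.81 to 5.97%, below every other cell type, and Lyve1+ resident macrophages at 43.8 to 49.8%.

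Free RNA in the droplets was gauged from the complement genes C1qa, C1qb and C1qc, which macrophages make. Their summed level in smooth muscle was 0.451 to 1.45% of that in phagocytes, and in fibroblasts 0.564 to 1.44%. Carried over at that rate, phagocyte RNA would give 5.78 to 15.8% of the Ftl1 level of smooth muscle and 0.442 to 1.44% of its Fth1 level. Members of the ferritin family also have processed copies in the genome, of which Ftl1-ps1 was counted on its own, so the counts of Ftl1 and Fth1 are uncertain where reads fit more than 1 copy.

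The export gene was found in few cell types. Slc40a1 (chromosome 1 of GRCm38 from 45908068 to 45926523) encodes ferroportin, the iron exporter of vertebrate cells. In Lyve1+ resident macrophages it was at 12.9, 60.1, 54.1 and 12.1 CPM, from 53, 113, 22 and 15 UMIs. The normocholesterolemic Nrf2flox/flox library and the library labelled atherosclerotic Nrf2Cdh5tKO were low, and the other libraries were high, with no overlap of their Poisson intervals (9.68 to 16.9, 49.5 to 72.2, 33.9 to 81.9 and 6.75 to 19.9 CPM at 95%, counting error only). A UMI of the gene was seen in 8.67, 20.2, 18.8 and 5.26% of these cells. After every cell was thinned to 1000 UMIs, the shares were 0.241, 5.35, 3.12 and 1.17%.

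No UMI of Slc40a1 was seen in endothelial cells, T and NK cells, B cells, monocytes, conventional dendritic cells (cDC2) or mesothelial cells. For T and NK cells, at a median depth of 5580 to 7175 UMIs against 5904 to 9770 in Lyve1+ resident macrophages, a count of 0 allows up to 1.65 to 7.22 CPM, and for endothelial cells up to 7.40 to 17.6 CPM. The endothelial limit lay below the level of Lyve1+ resident macrophages in 3 of 4 libraries, and above it (14.8 against 12.1 CPM) in the library labelled atherosclerotic Nrf2Cdh5tKO. In that library the limits of B cells (18.13 CPM), monocytes (14.34 CPM) and cDC2 (23.75 CPM) were above it too. For mesothelial cells of the normocholesterolemic Nrf2flox/flox library the limit was 23.96 against 12.92 CPM. Fibroblasts had 1.12, 2.92, 1.34 and 2.44 CPM, and smooth muscle cells 0.477 to 1.59 CPM. Neutrophils, which were in no fit, had the highest mean of any cell type, at 93.4, 119.8 and 19.2 CPM in the 3 libraries with at least 10 of them. Neutrophils and Lyve1+ resident macrophages overlapped in this order.

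Among phagocyte kinds, Slc40a1 was higher in Lyve1+ resident macrophages than in the mean of the other kinds (adjusted p = 2.09e-05, edgeR) and higher in Lyve1-low macrophages (adjusted p = 0.00377). The level in the latter was 17.99, 2.59, 24.6 and 7.76 CPM. In the normocholesterolemic Nrf2flox/flox library 18 of the 21 UMIs came from 1 cell, and without that library the adjusted p was 0.122. No fitted fold change is given, because monocytes and cDC2 had no UMI in any library. Cavity macrophages had 1 UMI, so the gene passed the filter on low counts through the Lyve1+ and Lyve1-low kinds. The p-values are therefore no evidence beyond the levels themselves.

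**Figure D3:**
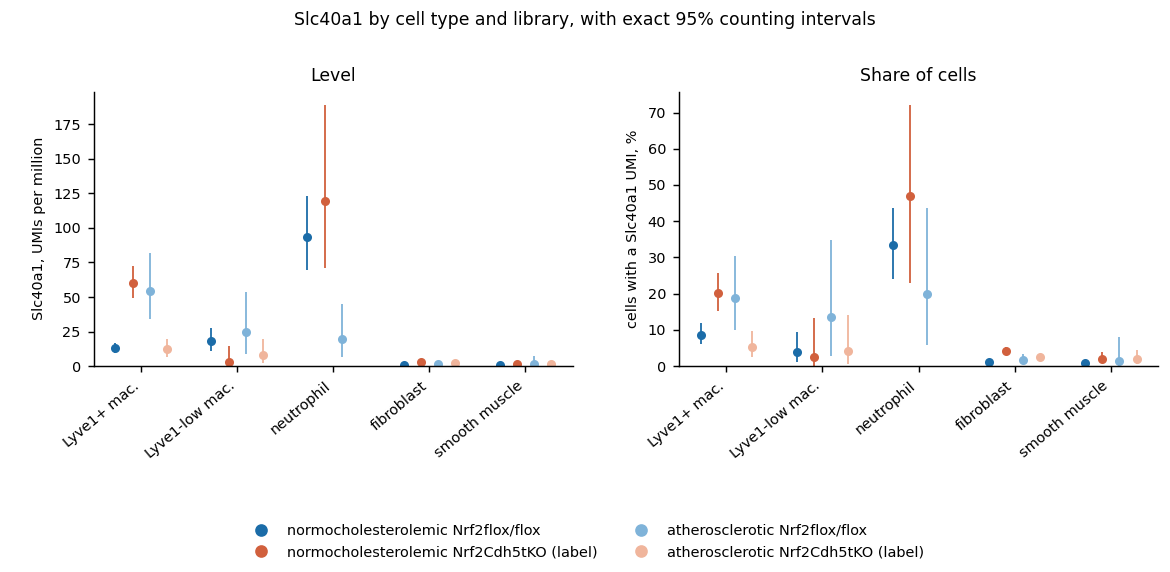
Level of Slc40a1 (CPM, left) and percent of cells with a UMI of it (right) in 5 cell types, 1 point per library with exact 95% intervals that cover counting error only. Lyve1+ resident macrophages are at 12.9, 60.1, 54.1 and 12.1 CPM, and fibroblasts and smooth muscle stay under 3 CPM.

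Ceruloplasmin, the product of Cp, oxidizes the iron that ferroportin lets out. Cp was at 334, 314, 292 and 325 CPM in fibroblasts. In endothelial cells it was at 242, 179, 380.2 and 405 CPM, and in Lyve1+ resident macrophages at 93.4, 121, 125 and 171 CPM. Fibroblasts and endothelial cells overlapped, and Lyve1+ resident macrophages lay below both and above all other cell types without overlap. The log2 fold change against the other main types was 4.21 ± 0.20 in fibroblasts (adjusted p = 3.74e-16) and 3.66 ± 0.27 in endothelial cells (adjusted p = 1.23e-11). Endothelial cells thus had Cp but no counted Slc40a1, and fibroblasts had Cp with little Slc40a1. In endothelial cells a UMI of Cp was seen in 30.8, 33.3, 32.1 and 65.2% of the cells. Among phagocyte kinds Cp was higher in Lyve1+ resident macrophages (4.17 ± 0.28, adjusted p = 3.11e-10), while monocytes had 6 UMIs in all and cavity macrophages 11, every one in the normocholesterolemic Nrf2flox/flox library.

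Trf encodes transferrin, the carrier of iron in blood, which the liver secretes in bulk. In these arches it was at 949, 1158, 1286 and 985 CPM in Lyve1+ resident macrophages, with a UMI in 95.9 to 98.1% of the cells. Mesothelial cells, present in number in only 2 libraries, had 791 and 1045 CPM. Lyve1-low macrophages had 399, 474, 299 and 394 CPM, and smooth muscle cells 6.11, 7.58, 5.16 and 13.2 CPM. Lyve1+ resident macrophages and mesothelial cells overlapped, and both lay above every other type. In smooth muscle a UMI of Trf was seen in 5.97 to 11.9% of the cells at median depths of 12147 to 15924 UMIs, and phagocyte RNA carried at the rate of the C1q genes would give 38.9, 94.98, 117 and 57.9% of its Trf level. In fibroblasts, where Trf was at 39.7 to 55.7 CPM, that share was 5.33 to 17.5%. Trf was higher in phagocytes with a log2 fold change of 5.25 ± 0.15 (adjusted p = 2.81e-21), and among phagocyte kinds higher in Lyve1+ resident macrophages (2.47 ± 0.21, adjusted p = 6.95e-09) and lower in cavity macrophages (-2.22 ± 0.31, adjusted p = 3.14e-05) and monocytes (-1.50 ± 0.28, adjusted p = 0.000378).

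The receptor of this carrier is encoded by Tfrc (chromosome 16 of GRCm38 from 32608920 to 32632794). Thymocytes had 56.4, 63.3, 77.7 and 96.8 CPM of Tfrc, the last from 20 UMIs of which 9 were in 1 cell. Lyve1+ resident macrophages had 47.3, 61.6, 83.6 and 64.4 CPM, overlapping them. Fibroblasts were lowest, at 1.34 to 2.92 CPM, and overlapped only endothelial cells, which ranged from 0 to 22.2 CPM on 14 UMIs. Tfrc was lower in fibroblasts by the test (-3.05 ± 0.25, adjusted p = 2.55e-11) and higher in phagocytes (1.63 ± 0.18, adjusted p = 1.23e-08), T and NK cells (1.38 ± 0.24, adjusted p = 1.81e-05) and B cells (1.24 ± 0.35, adjusted p = 0.00640). In smooth muscle it was lower (-0.69 ± 0.22, adjusted p = 0.00779), a call lost without the normocholesterolemic Nrf2flox/flox library (adjusted p = 0.0806). The receptor and its ligand were thus both high in Lyve1+ resident macrophages, while mesothelial cells had 3 UMIs of Tfrc beside their transferrin. Among phagocyte kinds Tfrc was higher in Lyve1+ resident macrophages (2.27 ± 0.22, adjusted p = 5.26e-08).

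Slc11a1 and Slc11a2 encode the natural resistance-associated macrophage proteins, also called Nramp1 and DMT1, which move iron out of the phagosome and the endosome. Slc11a1 was at 187, 148, 193 and 144 CPM in Lyve1-low macrophages. In monocytes it was at 164, 173, 92.5 and 182 CPM, and in Lyve1+ resident macrophages at 124, 111, 182 and 89.3 CPM. These kinds and the cavity macrophages overlapped, and all 4 lay above every other cell type. In cDC2 the libraries with at least 10 cells held 3 UMIs in all, and Slc11a1 was lower there than in the other kinds (adjusted p = 3.10e-07). Endothelial and mesothelial cells had 0 UMIs of Slc11a1. A count of 0 allows up to 7.40 to 17.6 CPM in endothelial cells. In the mesothelial cells of libraries with at least 10 of them it allows up to 11.4 and 24.0 CPM. Smooth muscle, at 5.99 to 11.6 CPM, lay within the reach of these limits, so absence is not shown. By the test across main types Slc11a1 was higher in phagocytes (adjusted p = 8.02e-18) and in fibroblasts (adjusted p = 6.15e-08). Both were set against a mean that includes endothelial cells, with 0 UMIs, so no fitted fold change is given. The gene can pass the filter on low counts through the types where it is high. Its p-values in this fit are therefore taken as no evidence beyond the levels themselves. Slc11a1 was lower in endothelial cells (adjusted p = 0.00572), a call lost under a stricter gate and without the atherosclerotic Nrf2flox/flox library. Within the monocytes, 22, 5, 8 and 9 nonclassical cells had 374, 265, 158 and 379 CPM, against 99.4, 132, 82.0 and 88.9 CPM in the classical ones, higher in each library. Fibroblasts had 17.1 to 22.5 CPM, of which phagocyte RNA carried at the rate of the C1q genes would give 4.22 to 7.53%.

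Slc11a2 was at 85.8, 54.8, 78.7 and 41.0 CPM in Lyve1+ resident macrophages and at 59.1, 28.5, 28.7 and 15.5 CPM in Lyve1-low macrophages, which overlapped. All other types had means of 1.28 to 19.2 CPM. Its log2 fold change was 2.21 ± 0.22 in phagocytes (adjusted p = 1.46e-09), and among phagocyte kinds 1.79 ± 0.23 in Lyve1+ resident macrophages (adjusted p = 2.26e-06). In endothelial cells Slc11a2 was called lower from 5 UMIs (adjusted p = 0.0429), and the call was lost without each library but the one labelled normocholesterolemic Nrf2Cdh5tKO (adjusted p = 0.0651 to 0.315).

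Ireb2 encodes iron regulatory protein 2, one of the proteins that bind the hairpins shown above. It was at 37.0, 40.3, 58.5 and 44.4 CPM in endothelial cells and at 20.3, 22.2, 22.1 and 20.1 CPM in fibroblasts. All 13 cell types had means between 14.6 and 45.1 CPM, and each overlapped the next in order. Ireb2 did not pass the test in phagocytes (0.09 ± 0.13, adjusted p = 0.619) nor in any phagocyte kind. In endothelial cells it was called higher (0.65 ± 0.23, adjusted p = 0.0331), and this call was lost without each library but the normocholesterolemic Nrf2flox/flox one, with adjusted p up to 0.165. The lower calls of Ireb2 in smooth muscle (-0.49 ± 0.14) and in T and NK cells (-0.56 ± 0.19) were lost without the normocholesterolemic Nrf2flox/flox library (adjusted p = 0.0829 and 0.408).

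Within the phagocytes, the Lyve1+ resident macrophages had 7 of 9 members higher and 0 lower, where 46.0% of 6603 genes were called. Lyve1-low macrophages had 6 higher and 0 lower, beside 14.8% of all genes. Both counts include Slc40a1, which entered the fit through these kinds and had no UMI in monocytes or cDC2. Cavity macrophages, named for markers of serous cavities, had 1 higher and 3 lower (17.7%), monocytes 1 higher and 3 lower (24.1%), and cDC2 0 higher and 2 lower (18.2%). The members with the lowest adjusted p in the Lyve1+ kind were Cp, Trf, Tfrc and Slc11a2, given above. Its Ftl1 call rested on a small difference (0.40 ± 0.14, adjusted p = 0.0189), which was lost without the library block (adjusted p = 0.195) and without each library but the atherosclerotic Nrf2flox/flox one (adjusted p = 0.104 to 0.190). In Lyve1-low macrophages Fth1 was higher by 0.85 ± 0.17 (adjusted p = 0.00130) and Ftl1 by 0.69 ± 0.13 (adjusted p = 0.000931), the latter lost without the block (adjusted p = 0.0812). Their Trf call (0.69 ± 0.23, adjusted p = 0.0457) was lost under 5 of the alternatives, and the Cp call (1.67 ± 0.40, adjusted p = 0.00530) under a stricter gate (adjusted p = 0.346). In monocytes Slc11a2 (-1.45 ± 0.39) and Tfrc (-1.67 ± 0.42) were lower, both lost without the normocholesterolemic Nrf2flox/flox library (adjusted p = 0.685 and 0.154). In cavity macrophages Fth1 (-0.70 ± 0.21), Cp (-1.96 ± 0.62) and the higher Slc11a1 each lost their call when 1 library was left out, with adjusted p of 0.311 for Fth1 and 0.244 for Cp without the library labelled atherosclerotic Nrf2Cdh5tKO and 0.418 for Slc11a1 without the normocholesterolemic Nrf2flox/flox one. In cDC2 the lower Ftl1 (-0.85 ± 0.17, adjusted p = 0.00113) was lost without the block (adjusted p = 0.0749).

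Genotype and diet were compared within Lyve1+ resident macrophages and within fibroblasts. With 1 library per condition there is no test, and a log2 ratio is given with the exact 95% interval of the split of UMIs, which covers counting error only. Pools, sorting and depth cannot be told apart from the condition. A member counts as past the fold when it differs by over 1.5-fold with at least 20 UMIs in both libraries together. In Lyve1+ resident macrophages 3 of 9 members passed between the normocholesterolemic libraries (labelled Nrf2Cdh5tKO against Nrf2flox/flox), where 32.4% of all genes did, and 4 between the atherosclerotic ones, where 33.1% did. Between the Nrf2flox/flox libraries 5 members passed (atherosclerotic against normocholesterolemic, 48.9% of all genes), and between those labelled Nrf2Cdh5tKO 1 did (19.5%). The members were therefore close to the background in each pair. The median log2 ratio of all genes was 0.22, -0.11, 0.22 and -0.09 in these pairs, in this order.

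Slc40a1 was the only member past the fold in all 4 pairs of Lyve1+ resident macrophages. Against the Nrf2flox/flox library, the library labelled Nrf2Cdh5tKO had a log2 ratio of 2.22 (1.73 to 2.72) in normocholesterolemic arches and of -2.16 (-3.22 to -1.15) in atherosclerotic arches. Between the atherosclerotic and the normocholesterolemic library it was 2.06 (1.28 to 2.81) for Nrf2flox/flox and -2.32 (-3.20 to -1.53) for the label Nrf2Cdh5tKO. The sign was thus opposite in the other diet or genotype, and these 4 ratios share their libraries. Ftl1 was lower in the library labelled normocholesterolemic Nrf2Cdh5tKO (-0.82, -0.85 to -0.78) and in the atherosclerotic Nrf2flox/flox library (-1.03, -1.09 to -0.96), each against the normocholesterolemic Nrf2flox/flox library. Fth1 was at -0.56 (-0.59 to -0.53) and -1.10 (-1.17 to -1.04) in the same pairs, so the normocholesterolemic Nrf2flox/flox library was high in both chains. This was not particular to Lyve1+ resident macrophages. That library was also highest in both chains in fibroblasts (Ftl1 3363 against 2350 to 2681 CPM) and in T and NK cells (1260 against 780 to 973 CPM). It was not highest in smooth muscle, nor for Fth1 in Lyve1-low macrophages. Slc11a2 was lower under the label Nrf2Cdh5tKO in both diets, at -0.65 (-0.98 to -0.33) and -0.94 (-1.61 to -0.25), though the first was -0.30 as a mean over cells. Slc11a1 was lower in the atherosclerotic pair (-1.03, -1.46 to -0.58) and Tfrc higher in the atherosclerotic than in the normocholesterolemic Nrf2flox/flox library (0.82, 0.25 to 1.35). Ireb2 passed the fold in 2 pairs, with intervals that held 0 in both. Trf and Cp passed it in none, at most 0.44 and 0.51 on the log2 scale.

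**Figure D4:**
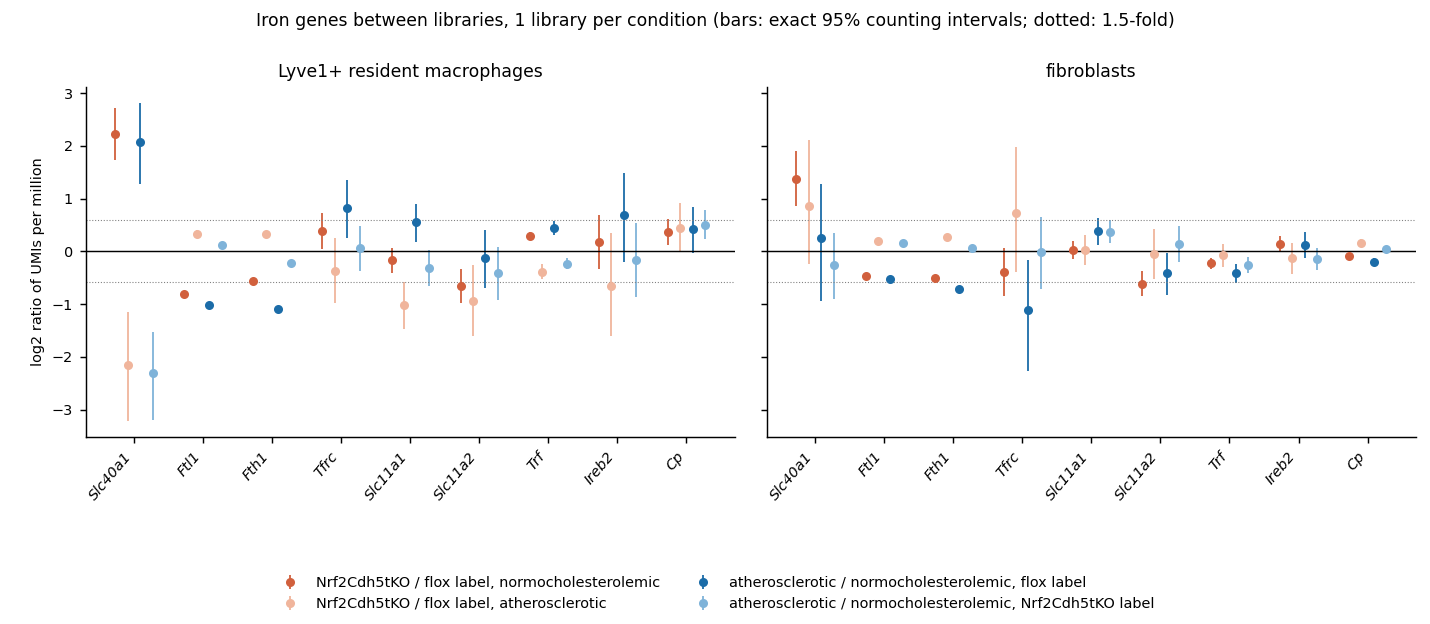
Log2 ratio of each member between libraries in Lyve1+ resident macrophages and fibroblasts, 1 point per pair with the exact 95% interval for counting error and dotted lines at 1.5-fold. Slc40a1 in Lyve1+ resident macrophages is at 2.22 in the normocholesterolemic and -2.16 in the atherosclerotic pair of genotypes.

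Fibroblasts varied less between libraries. In the pairs of genotypes 2 members passed the fold in normocholesterolemic (17.2% of all genes) and 2 in atherosclerotic arches (9.38%), and in the pairs of diets 2 for Nrf2flox/flox (23.1%) and 0 for the label Nrf2Cdh5tKO (15.2%). Slc40a1 was higher under the label Nrf2Cdh5tKO in normocholesterolemic arches (1.38, 0.87 to 1.89), from 76 against 59 UMIs. Its ratio in the atherosclerotic pair was 0.86 (-0.24 to 2.12), from 32 against 9. The opposite sign seen in Lyve1+ resident macrophages was thus not seen in fibroblasts, at counts that leave the interval open to either side. Fth1 was lower in the atherosclerotic than in the normocholesterolemic Nrf2flox/flox library (-0.71, -0.73 to -0.70). Tfrc rested on 9 UMIs in the atherosclerotic Nrf2flox/flox library, and its ratio to the library labelled atherosclerotic Nrf2Cdh5tKO took the other sign as a mean over cells. Cp stayed within -0.19 to 0.15 in all 4 pairs.

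Other genes of the pathway were read from 5 lists with 53 genes, also chosen with earlier results of these data known. All 11 tested genes of the list on haem and haemoglobin handling were higher in phagocytes and 0 lower, with a median log2 fold change of 1.81, where the median of all genes was -0.00314 and 31.6% of them were higher. Cd163, the scavenger receptor for haemoglobin, led with 7.26 ± 0.18 (adjusted p = 2.68e-22), and Spic, a transcription factor of iron-recycling macrophages, was also higher (adjusted p = 1.85e-13). Within the phagocytes, Lyve1+ resident macrophages had 6 of 10 of these genes higher and 2 lower, with a median of 0.65 beside 0.07 for all genes. Of all genes tested in these macrophages 25.9% were higher and 20.2% lower, so the lower ones were near the share of all genes. There Cd163 was higher by 4.90 ± 0.37 (adjusted p = 1.57e-09) and Hmox1, the haem oxygenase that frees iron from haem, by 2.84 ± 0.25 (adjusted p = 1.72e-08). Hp, which binds free haemoglobin, was lower there (-2.18 ± 0.76, adjusted p = 0.0233) and higher in monocytes (7.52 ± 0.30, adjusted p = 2.78e-13). Slc7a11, the cystine carrier that feeds glutathione synthesis, was lower in Lyve1+ resident macrophages (-5.56 ± 0.68, adjusted p = 1.34e-06) and higher in cavity macrophages (2.19 ± 0.48, adjusted p = 0.00256).

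Fibroblasts led in the list of the transferrin cycle and ferrireductases, with 6 of 7 tested genes higher and 0 lower, where 39.8% of all genes were higher. Steap4, a ferrireductase, was higher by 4.79 ± 0.27 (adjusted p = 1.05e-14), and Heph, a membrane ferroxidase and relative of ceruloplasmin, was also higher (adjusted p = 1.65e-08). The ferroxidases Cp and Heph were thus both high in the cell type with the least Tfrc. They were not particular to fibroblasts. Heph was also called higher in endothelial cells, on 8 UMIs (adjusted p = 0.00590, edgeR), and Cp there overlapped that of fibroblasts. In smooth muscle 4 of 7 genes of this list were higher, led by the ferrireductase Steap2 (adjusted p = 5.57e-10), beside 37.3% of all genes. No fitted fold change is given for Heph, Steap2, Spic or Bmp6, which had no UMI in at least 1 of the cell types compared. Such genes can pass the filter on low counts through the types where they are high. Their p-values are therefore taken as no evidence beyond the levels themselves. In the list on iron sensing and the hepcidin axis, endothelial cells had 3 of 5 genes higher, among them Bmp6, the ligand that raises hepcidin in the liver (208 UMIs, adjusted p = 2.61e-15), and Epas1 (5.23 ± 0.16, adjusted p = 5.91e-20), where 18.1% of all genes were higher. The genes of the hormone itself, Hamp and Hamp2, did not pass the filter on low counts.

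Genes whose levels ran closest to a member were sought by Pearson's r of log2(CPM + 1) over 52 sums of a cell type and library, which share libraries and depth, so no p is given. Slc40a1 ran with Clec5a (r = 0.743), Osgin1 (0.729) and Alox5 (0.706), and Ftl1 with Cd14 (0.880), Rab20 (0.855) and Cebpa (0.852). For Fth1 the nearest were Bri3 (0.832), Gabarap (0.813) and Asah1 (0.798), none of them shared with Ftl1, and r between Ftl1 and Fth1 was 0.562. Trf ran with Hpgd (0.887), Rab7b (0.830) and Dab2 (0.826), and Cp with Tln2 (0.851) and Mtmr11 (0.832). Slc11a1 ran with Cxcl2 (0.862), Sdcbp (0.841) and Pla2g7 (0.839). The nearest genes of Tfrc, Slc11a2 and Ireb2 were looser, at up to 0.730 (Rhoh), 0.730 (Pi4k2a) and 0.625 (Pcnx3).

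The promoters were searched for TGACNNNGC, the core of the antioxidant response element to which Nrf2 binds, on both strands. It was in 0 of 9 windows of 300 bases around the starts of 6 members, in RefSeq on GRCm38.p6. Of all 32851 such windows searched, 12.4% had it. These left out a chromosome that holds no member. The windows are short, and nothing about Nrf2 and these genes follows from this.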

How the data were processed

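The authors dissociated the arches, lysed red cells, sorted DAPI-negative cells and made 10x Chromium 3′ libraries. The submitters' processing notes name Cell Ranger 6.1.2 and the build mm10. The deposited values are UMI counts per gene and barcode, not normalized, for barcodes taken to be cells. Cells were kept within the limits of the study's methods, from 200 to 6000 genes detected and no more than 15% of UMIs from mitochondrial genes. Cells of at least 1000 UMIs were assigned to a type when the mean log level of its markers (UMIs per 10000) passed a cut, 12864 of them to 1 type. Cuts, the UMI minimum and the merging of classical with nonclassical monocytes and of the Lyve1-low kinds were set after the cells were seen. Scrublet (scanpy 1.11.5) marked 190, 64, 10 and 42 doublets, which were kept and removed as an alternative. Cell names therefore come from these markers alone.

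UMIs were summed per type and library with at least 10 cells, 24 sums for the 6 main types and 18 for the 5 phagocyte kinds (2 left out). edgeR 4.0.16 (R 4.3.3; filterByExpr, TMM, glmQLFTest, library as a block) compared each type with the mean of the others at an adjusted p of 0.05. The SE was derived from the fold change and the quasi-likelihood F. The fits were tested on simulated data. Levels have exact Poisson and ratios exact binomial intervals at 95%, for counting error only. A count of 0 allows 3 counts. Libraries of pooled mice are the only replicates across types. Alternatives were DESeq2 1.42.0, plain totals, no filter, no block, a stricter gate (1.25 times the cut), a mitochondrial limit of 10%, means over cells and each library left out. The alternatives for the ferritin percent were chosen after seeing the data. The members, lists and markers were chosen with earlier results of these data known. All members were named. Of the iron lists, the rule took up to 3 genes per contrast and direction with the largest fold change among called genes of at least 50 UMIs, of which the text gives a part, and 3 neighbours per member among genes of at least 500 UMIs that were neither members, markers nor mitochondrial, of which 1 is not reported here. Hairpins came from GENCODE M21 transcripts.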

Additional observations from a re-analysis of the deposited data

Results flagged for a closer look

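Slc40a1 in Lyve1+ resident macrophages went opposite ways in the 2 diets. The log2 ratio of the library labelled Nrf2Cdh5tKO to the Nrf2flox/flox library was 2.216 in normocholesterolemic and -2.164 in atherosclerotic arches, with counting intervals of 1.73 to 2.72 and -3.22 to -1.15. With 1 library per condition the difference was not tested. The ratios rested on 113 against 53 and on 15 against 22 UMIs. The most in 1 cell were 10 and 4 UMIs in the normocholesterolemic pair and 6 and 5 in the atherosclerotic pair, in the same order. The UMIs of the atherosclerotic pair came from only 9 and 12 cells. Over the alternatives the ratios lay between 2.01 and 2.32 and between -2.91 and -1.98. The share of cells with a UMI moved the same way as the level in each pair.

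Neutrophils, which entered no comparison, had Slc40a1 at 93.36, 119.8 and 19.25 CPM in the normocholesterolemic Nrf2flox/flox library, the library labelled normocholesterolemic Nrf2Cdh5tKO and the atherosclerotic Nrf2flox/flox library, from 50, 18 and 5 UMIs in 96, 17 and 20 cells. A UMI of the gene was in 33.3 and 47.1% of the cells of the first and second library and in 4 of 20 cells of the third, at median depths of 3429, 4628 and 6764 UMIs, and in 0 of the T and NK cells of the same libraries. Phagocyte RNA carried at the rate of the C1q genes would give 0.0550 to 1.23% of these levels. The 8 neutrophils of the library labelled atherosclerotic Nrf2Cdh5tKO had 4 UMIs.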

How the results depend on the processing

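Of the 930 member tests over all alternatives, 873 kept their side of the threshold, 38 lost the call, 19 gained it and 0 reversed. Direction was compared only where the main or the alternative fit made a call. The number of members called in B cells rose from 3 to 5 with plain totals and to 5 with no filter. In cavity macrophages it fell from 4 to 2 under the stricter gate and in cDC2 from 2 to 1 without the library block. Leaving out each library in turn gave 3 to 6 members in smooth muscle, 3 to 5 in endothelial cells, 2 to 4 in cavity macrophages and 2 to 5 in monocytes. The lowest of these came without the normocholesterolemic Nrf2flox/flox library in smooth muscle, cavity macrophages and monocytes, without the atherosclerotic Nrf2flox/flox library in endothelial cells, and also without the library labelled atherosclerotic Nrf2Cdh5tKO in cavity macrophages. The cause was not tested, though each such fit has fewer samples. No paired analysis was possible because each condition is 1 library, and the replicate block of the fits is the library itself. Without the library block the members called in phagocyte kinds fell from 23 to 19. These counts of members are not set beside the share of all genes called in the same alternative fits. They therefore do not tell whether members moved more than other genes. Of 360 ratios between libraries under the alternatives, 321 stayed within their counting interval, 38 moved beyond it and 1 reversed. The last was Tfrc in fibroblasts between the atherosclerotic libraries, from 0.72 to -0.49 as a mean over cells, from 29 and 9 UMIs. TMM scaling moved 19 of them, with Ftl1 in the normocholesterolemic pair from -0.82 to -1.02. The ferritin percent of smooth muscle, fibroblasts, phagocytes and Lyve1+ resident macrophages moved by less than 1 SD with other gates, cell filters or libraries left out, between 5.24 and 5.62% in smooth muscle. Depth limits Slc40a1 where a count of 0 allows more than the level of Lyve1+ resident macrophages. This held in endothelial cells, monocytes, B cells and cDC2 of the library labelled atherosclerotic Nrf2Cdh5tKO. It also held in mesothelial cells of the normocholesterolemic Nrf2flox/flox library. Depth also limits members with few UMIs, such as Cp in cDC2 (3 UMIs) and in cavity macrophages (11 UMIs).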

Other observations

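Iron genes were also read in cell types that entered no fit. Mesothelial cells of 2 libraries (11 and 15 cells) had Ftl1 at 1908 to 2260 CPM and Cp at 3.79 to 7.99 CPM, beside Trf at 791 and 1045 CPM. The 2 mesothelial cells of the library labelled atherosclerotic Nrf2Cdh5tKO held 17 UMIs of Trf. Neutrophils had Fth1 at 8229, 3101 and 3330 CPM, Slc11a1 at 59.8, 19.96 and 38.5 CPM and 1 UMI of Slc11a2 in all. Thymocytes, which are not part of the aorta, had the highest mean of Tfrc (73.5 CPM ± 17.9, SD, n = 4) and the lowest of Fth1 (1614 CPM ± 181, SD, n = 4).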
